A study of Mus musculus with 12 samples.

Results

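The genes described here are 8 genes of macrophage cell fusion and of the osteoclast, the bone-resorbing cell that forms by fusion of macrophage precursors. They were taken by name, with earlier results of these data known: Ocstamp, Dcstamp, Atp6v0d2, Ctsk, Acp5, Calcr, Tnfrsf11a and Nfatc1. All 8 are among the 55891 gene identifiers of the deposited table, and 7 of them passed the filter on low counts that left 13525 genes for testing. Calcr did not pass it. Their RNA was read by sequencing in macrophages derived from mouse bone marrow, cultured for 6 days in 10 ng/mL M-CSF, a growth factor that drives marrow progenitors to the macrophage fate. The mice were KO, carrying the targeted Ptprz1 allele of the strain B6.129-Ptprz1tm1Nmo, or WT, with titles that begin with B6. The strain label names that targeted strain for the WT samples as well, while their genotype label is PTPRZ_WT. Ptprz1 encodes a receptor-type tyrosine phosphatase. Cells of both genotypes received 100 ng/mL LPS (bacterial lipopolysaccharide) with 10 ng/mL IFNγ for 24 h, received 20 ng/mL IL-4 for 24 h, or were left untreated as control. Each of the 6 groups had 2 libraries, and the labels give no age or sex. No RANKL, the cytokine used to make osteoclasts in culture, is named in the labels' protocols for any group. Whether both libraries of a group stem from different animals or cultures is not said in the labels. The p-values therefore reflect the spread between these libraries, which could be technical.

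In osteoclast formation, RANKL binds the receptor RANK on a macrophage precursor and, together with M-CSF signalling, switches on the transcription factor NFATc1. NFATc1 in turn drives genes for fusion, such as Dcstamp, Ocstamp and Atp6v0d2, and genes for bone resorption, such as Ctsk and Acp5. Macrophages also fuse into multinucleated giant cells when exposed to IL-4, which acts through STAT6, and DC-STAMP is needed for both kinds of fusion. LPS and IFNγ drive the inflammatory macrophage state, and IFNγ is known to restrain osteoclast formation from precursors.

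Promoter sequences of RefSeq (GRCm38.p6) were at hand for 4 of the 8 genes, in 7 windows of 300 bases, 250 before the start site and 50 after. Matches were counted over whole windows, which are longer than the stretches shown. A stretch of 250 bases before the start site is shown for Ctsk and for 1 of the 3 Acp5 windows, since both genes were higher after IL-4 in KO and in WT cells. The letters searched were TTCNNNNGAA and TTCNNNGAA (STAT), TCATGTGA (MITF), GGAAA (NFAT), GAGGAA (PU.1) and TGANTCA (AP-1), on both strands. Capitals mark the matches. The Acp5 window shown is the one of the 3 with the most matches and was picked after they were seen. The other 2 each held 1 match to GGAAA and none of the other letters.
Ctsk, chr3:95498960-95499209, plus strand: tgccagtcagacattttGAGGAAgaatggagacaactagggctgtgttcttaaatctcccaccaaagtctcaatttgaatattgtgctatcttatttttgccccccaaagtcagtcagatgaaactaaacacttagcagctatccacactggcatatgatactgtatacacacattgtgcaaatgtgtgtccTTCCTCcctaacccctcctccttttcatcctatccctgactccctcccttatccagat
Acp5, chr9:22130599-22130848, minus strand: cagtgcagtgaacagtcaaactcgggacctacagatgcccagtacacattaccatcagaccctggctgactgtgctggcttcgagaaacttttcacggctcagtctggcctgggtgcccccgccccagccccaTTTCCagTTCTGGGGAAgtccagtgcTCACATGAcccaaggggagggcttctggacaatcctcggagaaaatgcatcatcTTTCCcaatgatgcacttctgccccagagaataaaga
In the Acp5 stretch, TTCTGGGGAA at -110 from the start site is a match to TTCNNNNGAA. The same stretch holds TCACATGA, the reverse complement of TCATGTGA, at -91, and TTTCC, the reverse complement of GGAAA, at -117 and -37. In the Ctsk stretch, the capitals are GAGGAA at -233 and its reverse complement at -58. The full Ctsk window also holds TTTCC at 1, just past the stretch shown. Over all 32851 windows of the table, 6.95% held TTCNNNNGAA, 0.986% TCATGTGA, 61.3% GGAAA, 28.3% GAGGAA, 8.30% TTCNNNGAA and 7.81% TGANTCA. The Tnfrsf11a window held none of these letters. A match is a description of the letters in the window and not of a bound site.

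The fusion genes were lower after LPS+IFNγ than after IL-4 in both genotypes. Ocstamp, Ctsk and Acp5 rose after IL-4 in both genotypes, with Ocstamp 268-fold above control in KO cells and 325-fold in WT cells, folds that rest on 7 and 10 control counts. Dcstamp and Atp6v0d2 fell after LPS+IFNγ in both genotypes, Atp6v0d2 with log2 fold changes of -4.24 ± 0.55 in KO and -4.81 ± 0.56 in WT cells (estimate ± SE). The receptor gene Tnfrsf11a rose after LPS+IFNγ in WT cells. Nfatc1 ran from 36.9 to 63.9 CPM in the 12 libraries and was called lower after IL-4 in WT cells, but not in KO cells. CPM are counts scaled to a common library size with TMM factors. A gene was called changed when its p from the edgeR quasi-likelihood F test, adjusted by Benjamini and Hochberg's method over all 13525 genes tested, was below 0.05.

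After IL-4, 3 of the 7 tested genes were called in KO cells, all higher, where 6.86% of all genes tested were called. In WT cells 4 of 7 were called, 3 higher and 1 lower, against 9.04% of all genes. Ocstamp, among the higher genes in both genotypes, had at most 6 counts in any control or LPS+IFNγ library. It passed the low-count filter only through its IL-4 libraries, so its place among the 7 depended on the group where it is high. The median log2 fold change of the 7 genes was 1.31 in KO cells and 1.42 in WT cells, beside 0.00 and -0.02 over all genes tested. The genes were chosen with earlier results of these data known, so these shares and medians describe the set and do not test it. After LPS+IFNγ, 3 of 7 were called in KO cells, 1 higher and 2 lower, and 4 of 7 in WT cells, 2 higher and 2 lower. Scaled by total counts, 0 were higher and 4 lower in both genotypes. With 53.3% and 54.3% of all genes called in those comparisons, these shares are near the background. Medians of the 7 genes after LPS+IFNγ were -0.28 in KO cells and -0.31 in WT cells, beside -0.01 and -0.05 over all genes. Total counts per library ran from 13665607 to 19555600, and 3 counts, taken as the floor, are 0.138 to 0.290 CPM. Scaling by total counts without TMM moved the median of all genes by -0.50 in both LPS+IFNγ comparisons. It turned the calls after LPS+IFNγ in WT cells into 2048 higher and 6170 lower, where TMM gave 3700 and 3648, and in KO cells into 1990 and 6049, where TMM gave 3676 and 3527. The IL-4 calls in WT cells became 519 higher and 669 lower, where TMM gave 665 and 557.

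**Figure D1:**
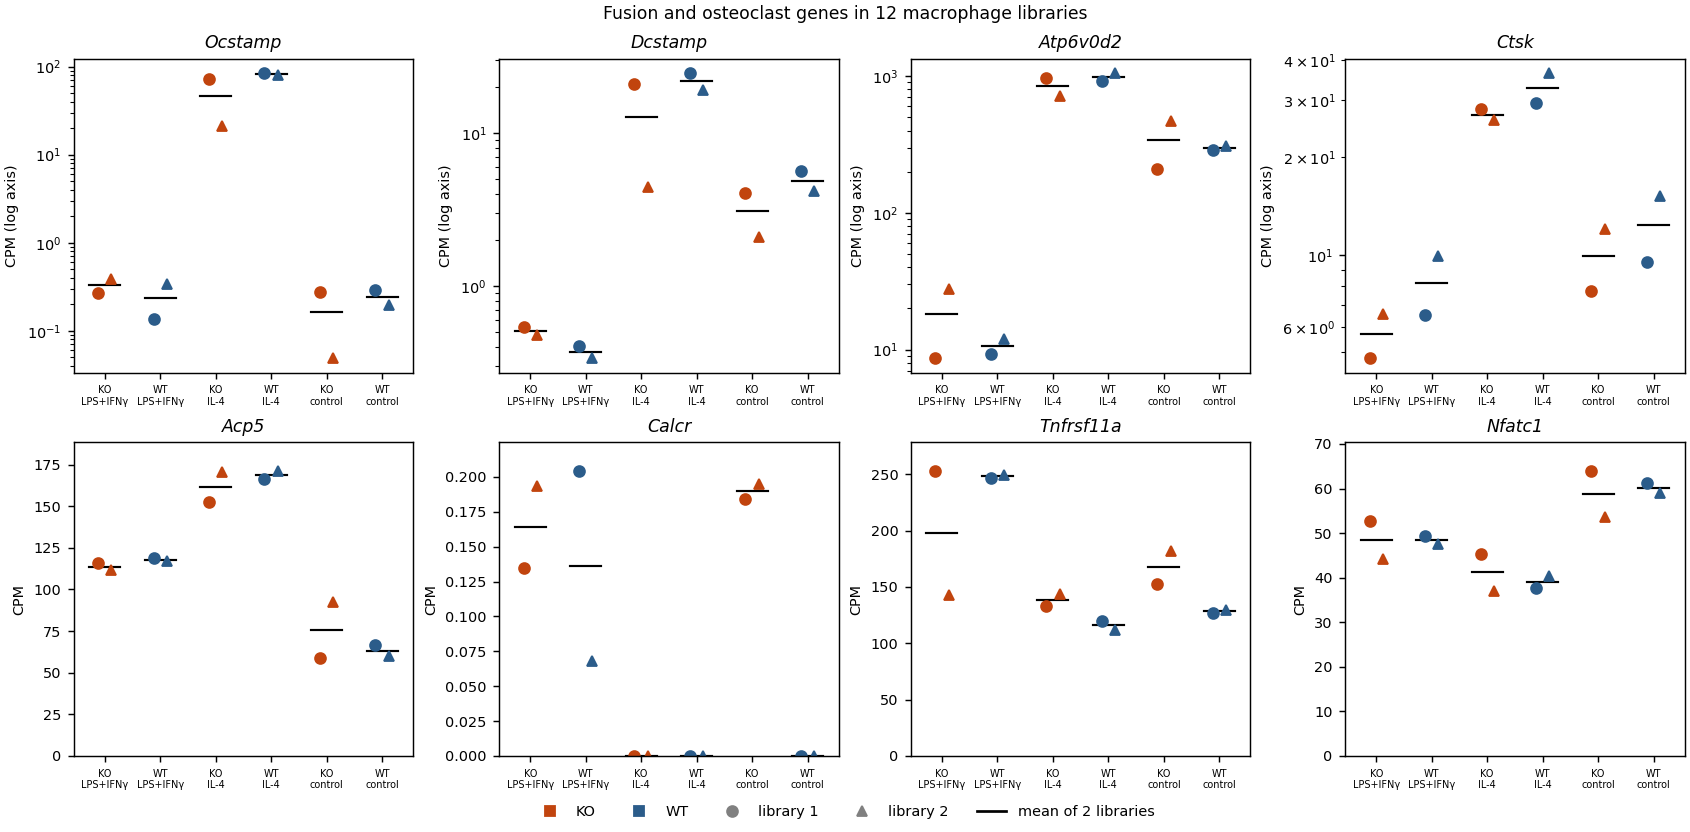
CPM of each of the 8 genes (vertical axis, logarithmic for Ocstamp, Dcstamp, Atp6v0d2 and Ctsk) in the 6 groups (horizontal axis), with a circle for library 1, a triangle for library 2, orange for KO, blue for WT and a bar for the mean of 2 libraries. Ocstamp reached 20.98 to 83.7 CPM in the IL-4 libraries and stayed at or below 0.387 CPM in all others.

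Several facts of the libraries touch these results. All 8 macrophage markers were detected, with a summed level of 17860 to 20860 CPM after LPS+IFNγ, 8138 to 10060 CPM after IL-4 and 14400 to 18780 CPM in control. Lyz2 was the largest part, averaging 10610 CPM in KO and 9447 CPM in WT control. Its means were 5130 and 3638 CPM after IL-4, and 6976 and 6027 CPM after LPS+IFNγ. After LPS+IFNγ, 4 markers were called higher and 2 lower in KO cells, and 5 and 2 in WT cells. After IL-4, 0 were higher, and 3 in KO and 4 in WT cells were lower. Of all genes, 53.3% and 54.3% were called after LPS+IFNγ, and 6.86% and 9.04% after IL-4. KO and WT libraries also differed in sex-linked transcripts: Xist had 0 counts in the 6 KO libraries and 232 to 618 CPM in the 6 WT libraries, and 4 Y-linked genes summed to 157 to 198 CPM in KO and 0 counts in WT. Sex and genotype therefore cannot be told apart. Of 18 stromal and osteoblast markers, 17 had counts, the exception being Bglap. Their sum was 436 to 1968 CPM in KO libraries and 89.6 to 558 CPM in WT libraries. In each treatment KO library 2 had the highest sum (1135 CPM after LPS+IFNγ, 1968 after IL-4 and 1378 in control). In WT cells too, library 2 was above library 1, at 314 beside 89.6 CPM after LPS+IFNγ. The WT sums were 501 beside 186 CPM after IL-4 and 558 beside 119 CPM in control. KO control library 1 stood apart in 12 interferon-stimulated genes, with a sum of 306 CPM beside 56.7 to 62.8 CPM in the other 3 control libraries, 42.0 to 62.7 CPM after IL-4 and 23760 to 30670 CPM after LPS+IFNγ. All 12 were higher in KO than in WT control cells at an unadjusted p below 0.05 and 0 were called, and 3 were called lower after IL-4 in KO cells. Without that library, the KO calls of Ctsk after IL-4 and of Dcstamp and Acp5 after LPS+IFNγ did not pass, and the part of the interferon-stimulated genes in this was not tested. The sum of 9 dendritic cell markers was 39.7 to 56.9 CPM after LPS+IFNγ. It was 613 to 668 CPM after IL-4 and 96.5 to 195 CPM in control. Most of it was Itgax, which macrophages also express, while Flt3 and Xcr1 stayed at or below 0.409 CPM. Zbtb46 averaged 1.49 CPM in KO and 1.37 CPM in WT cells after IL-4, beside 0.431 and 0.440 CPM in control. Ccr7 averaged 2.28 CPM in KO and 3.635 CPM in WT cells after LPS+IFNγ, beside 0.0691 and 0.244 CPM in control. The sum of 10 granulocyte markers was 197 to 502 CPM after LPS+IFNγ. It was 12.8 to 45.5 CPM after IL-4 and 17.8 to 46.6 CPM in control, with Ly6g at 0 counts in all 12 libraries. Most of the sum after LPS+IFNγ was Csf3r (171 to 281.5 CPM) and S100a8 (24.8 to 220 CPM). Of 6 tested granulocyte markers, 2 had positive and 4 negative log2 differences from control after LPS+IFNγ in WT cells, and 3 and 3 in KO cells. The part of these markers in the treatment differences was not tested. KO libraries of a group differed more from each other than WT libraries did, with a chi-square per gene of 48.4 to 54.9 in KO and 7.10 to 15.6 in WT. Ptprz1 itself had 0 counts in 11 of 12 libraries, WT included, so its RNA could not check the genotype labels.

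RANK, the receptor that receives the osteoclast signal, is encoded by Tnfrsf11a (chromosome 1, 105780718 to 105847981, plus strand, GRCm38, as for all gene positions here). It was well expressed without any treatment. After LPS+IFNγ, Tnfrsf11a had 253 and 143 CPM in KO libraries 1 and 2 and 247 and 250 CPM in WT libraries. IL-4 libraries had 133 and 144 CPM in KO and 120 and 112 CPM in WT, and control libraries had 153 and 182 CPM in KO and 127 and 130 CPM in WT. The WT LPS+IFNγ libraries stood clear of all WT libraries of the other treatments, while the KO LPS+IFNγ libraries spread over the KO control range. Tnfrsf11a rose after LPS+IFNγ in WT cells by 0.95 ± 0.22 on the log2 scale (adjusted p = 0.00473). In KO cells the log2 difference was 0.24 ± 0.22 (adjusted p = 0.378). Under total-count scaling the WT difference was 0.45 with an adjusted p of 0.124, and the KO difference turned to -0.24. Leaving out KO LPS+IFNγ library 2 gave a KO difference of 0.60 (adjusted p = 0.00428), and leaving out library 1 gave -0.24. The effect of LPS+IFNγ differed between KO and WT by -0.71 ± 0.31 (adjusted p = 0.991, edgeR interaction test). Without KO LPS+IFNγ library 1 that difference was -1.19, with an adjusted p of 0.0484. After IL-4, Tnfrsf11a differed from control by -0.27 ± 0.22 in KO and -0.14 ± 0.22 in WT cells, and neither passed the test.

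NFATc1, the transcription factor at the head of the osteoclast programme, is encoded by Nfatc1 on chromosome 18 (80606205 to 80713071, minus strand). After LPS+IFNγ, Nfatc1 had 52.8 and 44.2 CPM in KO and 49.4 and 47.5 CPM in WT. IL-4 libraries had 45.4 and 36.9 CPM in KO and 37.6 and 40.4 CPM in WT, and control libraries 63.9 and 53.6 CPM in KO and 61.3 and 58.9 CPM in WT. Every IL-4 library was below every control library, so the groups did not overlap in either genotype. Nfatc1 fell after IL-4 in WT cells, with a log2 difference of -0.62 ± 0.14 (adjusted p = 0.0248), while the difference in KO cells was -0.51 ± 0.14 (adjusted p = 0.0560). Leaving out any 1 of the 4 WT control and IL-4 libraries took the WT call away, with adjusted p-values from 0.113 to 0.173. In KO cells DESeq2 called the fall (-0.55, adjusted p = 0.0115), as did the fits that left out KO control library 2 (adjusted p = 0.0352) or KO IL-4 library 1 (adjusted p = 0.0391). A fit with a term for the library number (replicate block) also called the KO fall after IL-4. After LPS+IFNγ the differences were -0.27 ± 0.14 in KO and -0.31 ± 0.14 in WT cells (adjusted p = 0.122 and 0.0822). Under total-count scaling both passed, at -0.77 and -0.81. An antisense gene, AC123818.1, overlaps Nfatc1, and whether counting used strand is not given in the sources used here. The direction of the IL-4 difference in Nfatc1 was thus opposite to that of Ocstamp, Ctsk and Acp5 in the same libraries.

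Calcr, which encodes the calcitonin receptor of mature osteoclasts (chromosome 6, 3685680 to 3764714, minus strand), was at the detection limit. It had 16 counts in all, spread over 6 libraries, and no library exceeded 0.204 CPM. Counts were 4 in KO and 4 in WT cells after LPS+IFNγ, 0 in both genotypes after IL-4, and 8 in KO against 0 in WT control cells. With 0 counts in an IL-4 library, levels of up to 0.142 CPM in the deepest and 0.167 CPM in the shallowest of them remain possible, for counting error only. No difference in Calcr was tested, because the gene did not pass the filter.

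Ocstamp encodes a multi-pass membrane protein required for fusion of osteoclasts and of giant cells (chromosome 2, 165393760 to 165400405, minus strand). After IL-4 it had 71.7 and 20.98 CPM in KO libraries 1 and 2 and 83.7 and 79.8 CPM in WT libraries. LPS+IFNγ libraries had 0.270 and 0.387 CPM in KO and 0.136 and 0.339 CPM in WT. Control libraries had 0.276 and 0.0488 CPM in KO and 0.292 and 0.197 CPM in WT, which is 7 counts in the KO pair and 10 in the WT pair. All 4 IL-4 libraries stood far above the other 8, and KO IL-4 library 2 was the lowest of the 4. The log2 rise after IL-4 was 8.07 ± 0.75 in KO cells (95% interval 6.38 to 9.76, adjusted p = 0.000725) and 8.34 ± 0.72 in WT cells (95% interval 6.72 to 9.97, adjusted p = 0.000398). The KO value moved with single libraries, to 9.695 without control library 1, 7.32 without control library 2, 6.92 without IL-4 library 1 and 8.70 without IL-4 library 2, and it was called in each of these. A fit on the KO control and IL-4 libraries alone gave 8.06, with an adjusted p of 0.0666. LPS+IFNγ left Ocstamp with too few counts for a direction, at 0.92 ± 1.37 in KO and -0.04 ± 1.31 in WT cells (adjusted p = 0.604 and 0.984). Set directly against IL-4, LPS+IFNγ cells were lower in Ocstamp, with log2 differences of -7.15 ± 0.74 in KO and -8.38 ± 0.75 in WT (adjusted p = 3.52e-05 and 1.33e-05). The KO difference was -6.01 with IL-4 library 1 left out and -7.78 with IL-4 library 2 left out, and without WT LPS+IFNγ library 2 the WT difference was -9.16.

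Dcstamp, the gene of the related fusion protein DC-STAMP (chromosome 15, 39745930 to 39760938, plus strand), was present at a low level before treatment. After LPS+IFNγ it had 0.540 and 0.484 CPM in KO and 0.409 and 0.339 CPM in WT. These rest on 8 and 5 counts in KO and 6 and 5 counts in WT libraries. IL-4 libraries had 20.99 and 4.45 CPM in KO and 24.7 and 19.1 CPM in WT, and control libraries had 4.10 and 2.10 CPM in KO and 5.64 and 4.19 CPM in WT. The 4 LPS+IFNγ libraries lay below all others. The WT IL-4 libraries lay above all controls, and KO IL-4 library 2 lay just above both KO controls and within the WT control range. Dcstamp fell after LPS+IFNγ, with log2 differences of -2.57 ± 0.81 in KO cells (adjusted p = 0.0231) and -3.69 ± 0.81 in WT cells (adjusted p = 0.00370). The KO call was lost without KO control library 1 (adjusted p = 0.113), without KO LPS+IFNγ library 1 (0.112) and without KO LPS+IFNγ library 2 (0.0987). After IL-4 the log2 differences were 2.03 ± 0.60 in KO cells (adjusted p = 0.0763) and 2.15 ± 0.59 in WT cells (adjusted p = 0.0531), which missed the threshold. DESeq2 called both, at 2.00 (adjusted p = 0.0148) and 2.15 (adjusted p = 0.00623). The replicate block fit also called both. Leaving out KO IL-4 library 2 raised the KO difference to 2.75 (adjusted p = 0.00574), and leaving out KO IL-4 library 1 gave 0.52. Between LPS+IFNγ and IL-4 the log2 difference was -4.60 ± 0.78 in KO and -5.85 ± 0.80 in WT cells (adjusted p = 0.000792 and 0.000198), with -3.09 in KO without IL-4 library 1 and -5.33 without IL-4 library 2.

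Atp6v0d2 encodes the d2 subunit of the membrane part of the vacuolar proton pump (V-ATPase), which in mice is needed for efficient fusion of osteoclasts and giant cells (chromosome 4, 19876841 to 19922605, minus strand). LPS+IFNγ libraries had 8.64 and 27.9 CPM in KO and 9.26 and 11.99 CPM in WT. IL-4 libraries had 973 and 721 CPM in KO and 925 and 1048 CPM in WT, and control libraries had 209.5 and 472 CPM in KO and 289 and 309 CPM in WT. The treatments did not overlap in either genotype: LPS+IFNγ was lowest, control between and IL-4 highest. The fall after LPS+IFNγ had an adjusted p of 0.000150 in KO cells and 7.81e-05 in WT cells, and it was called in each alternative fit, with log2 values from -5.30 (without KO LPS+IFNγ library 2) to -3.55 (without KO control library 2) in KO and -5.31 to -4.65 in WT cells. Leaving out KO LPS+IFNγ library 1 gave -3.62. After IL-4 the log2 differences were 1.31 ± 0.47 in KO cells (adjusted p = 0.128) and 1.72 ± 0.48 in WT cells (adjusted p = 0.0554), neither past the threshold. The KO difference was 0.84 without KO control library 1 (adjusted p = 0.443) and 1.98 without KO control library 2 (adjusted p = 0.0599). DESeq2 called the WT difference (1.72, adjusted p = 0.0229). The replicate block fit also called the WT difference, but not the KO difference. Fitting without the filter on low counts called both, at 1.31 in KO cells (adjusted p = 0.00186) and 1.72 in WT cells (adjusted p = 6.10e-05). Between LPS+IFNγ and IL-4 the log2 difference was -5.56 ± 0.58 in KO cells (adjusted p = 3.54e-05) and -6.53 ± 0.60 in WT cells (adjusted p = 1.58e-05), with -4.93 in KO without LPS+IFNγ library 1 and -6.61 without LPS+IFNγ library 2.

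Ctsk encodes cathepsin K, the protease with which osteoclasts degrade bone collagen (chromosome 3, 95499256 to 95509362, plus strand). IL-4 libraries had 28.2 and 26.1 CPM in KO and 29.4 and 36.4 CPM in WT. LPS+IFNγ libraries had 4.79 and 6.58 CPM in KO and 6.54 and 9.89 CPM in WT, and control libraries had 7.74 and 12.04 CPM in KO and 9.48 and 15.2 CPM in WT. IL-4 libraries were above all others in both genotypes. LPS+IFNγ libraries were below control in KO and overlapped control in WT. Ctsk rose after IL-4 by 1.46 ± 0.30 in KO cells (adjusted p = 0.0227) and by 1.41 ± 0.30 in WT cells (adjusted p = 0.0209). Leaving out KO control library 1 (1.17, adjusted p = 0.134), KO IL-4 library 1 (1.40, adjusted p = 0.0542) or KO IL-4 library 2 (1.51, adjusted p = 0.0722) ended the KO call. Leaving out WT control library 1 (1.11, adjusted p = 0.177), WT IL-4 library 1 (1.56, adjusted p = 0.0738) or WT IL-4 library 2 (1.25, adjusted p = 0.126) ended the WT call. After LPS+IFNγ the differences were -0.81 ± 0.32 in KO and -0.59 ± 0.31 in WT cells (adjusted p = 0.0575 and 0.133), and both passed under total-count scaling, at -1.31 and -1.08. DESeq2 called the KO difference after LPS+IFNγ (adjusted p = 0.0438), as did the fit without KO control library 1 (-1.10, adjusted p = 0.0283). The replicate block fit called the difference after LPS+IFNγ in both genotypes. Against IL-4, LPS+IFNγ cells were lower in Ctsk, with log2 differences of -2.264 ± 0.32 in KO and -2.001 ± 0.31 in WT. The adjusted p-values were 0.000258 and 0.000414.

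Acp5 encodes tartrate-resistant acid phosphatase, the enzyme stained to identify osteoclasts, and is also expressed by macrophages (chromosome 9, 22126727 to 22135711, minus strand). LPS+IFNγ libraries had 116 and 112 CPM in KO and 119 and 117 CPM in WT. IL-4 libraries had 152 and 171 CPM in KO and 166 and 171 CPM in WT, and control libraries had 58.9 and 92.3 CPM in KO and 66.5 and 60.1 CPM in WT. The 3 treatments did not overlap in either genotype. Acp5 rose after IL-4 by 1.09 ± 0.18 in KO cells (adjusted p = 0.00841) and by 1.42 ± 0.18 in WT cells (adjusted p = 0.00239). It rose after LPS+IFNγ by 0.59 ± 0.18 in KO cells (adjusted p = 0.0189) and by 0.90 ± 0.18 in WT cells (adjusted p = 0.00208). Under total-count scaling neither LPS+IFNγ difference passed, at 0.09 in KO and 0.40 in WT cells (adjusted p = 0.672 and 0.0780). The KO call after LPS+IFNγ was also lost without KO control library 1 (0.30, adjusted p = 0.0792) and without KO LPS+IFNγ library 1 (0.56, adjusted p = 0.0714). Acp5 was lower after LPS+IFNγ than after IL-4, at -0.50 ± 0.18 in KO (adjusted p = 0.0352) and -0.52 ± 0.18 in WT cells (adjusted p = 0.0309), and these calls were lost when any 1 of the 4 libraries of the pair was left out. A transcript on the other strand, 6530413G14Rik, overlaps Acp5.

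**Figure D2:**
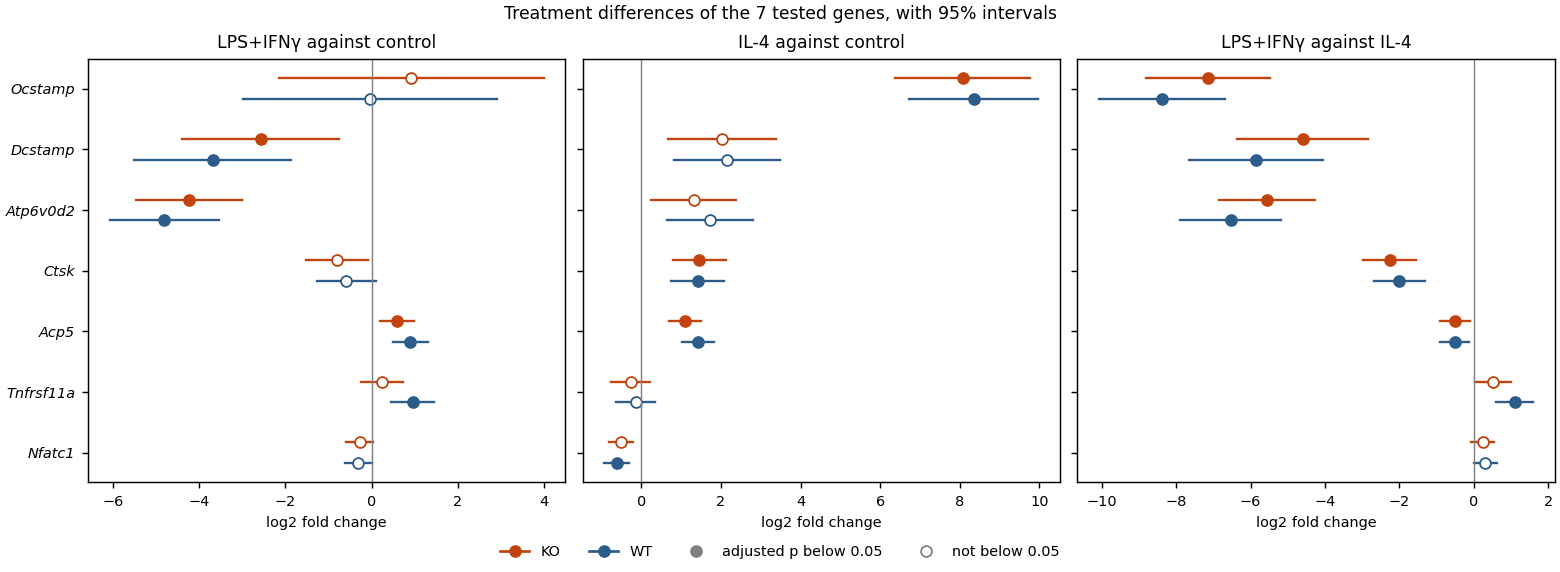
Log2 fold change (horizontal axis) of the 7 tested genes (rows) in 3 treatment comparisons, with KO in orange and WT in blue, bars for 95% intervals from the quasi-likelihood fit, filled points for an adjusted p below 0.05 and open points for the rest. Between LPS+IFNγ and IL-4, Ocstamp, Dcstamp, Atp6v0d2, Ctsk and Acp5 lay below 0 with filled points in both genotypes.

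Every difference from control that was called in both genotypes had the same direction in KO and WT cells. LPS+IFNγ against IL-4 called 5 of 7 genes in KO cells, all lower, where 54.9% of all genes were called. In WT cells it called 6 of 7, where 56.2% were called: the same 5 lower, and Tnfrsf11a higher (1.09 ± 0.22, adjusted p = 0.00205). In KO cells the Tnfrsf11a difference was 0.52 ± 0.22 (adjusted p = 0.0690).

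Compared per length of the annotated exons, the 8 genes spanned a wide range of levels. In IL-4 cells Atp6v0d2 led with 312 ± 65.8 CPM per kilobase in KO and 363 ± 32.1 in WT (mean ± SD, n = 2), followed by Acp5 with 79.5 ± 6.37 and 83.2 ± 1.68. Ocstamp reached 12.7 ± 9.80 CPM per kilobase in KO, where Tnfrsf11a (23.1 ± 1.24) and Ctsk (17.9 ± 0.96) stood above its mean, and 22.4 ± 0.75 in WT cells, where it came next after Acp5. Atp6v0d2 and Acp5 also led in control cells, where Ocstamp was at 0.0445 CPM per kilobase in KO and 0.0668 in WT. After LPS+IFNγ, Acp5 led with 56.1 ± 1.39 CPM per kilobase in KO and 58.1 ± 0.76 in WT cells, and Tnfrsf11a came next with 33.0 ± 13.03 and 41.5 ± 0.35. In order of group means, Ocstamp was highest in WT IL-4 cells, and KO IL-4 cells came next without overlap. Its other 4 groups overlapped with their neighbours in that order. Dcstamp and Atp6v0d2 were also highest in the 2 IL-4 groups, but there the KO and WT libraries overlapped.

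KO and WT cells were also compared within each treatment, a comparison in which Ptprz1 genotype and sex cannot be told apart. None of the 7 tested genes was called between KO and WT cells after LPS+IFNγ, after IL-4 or in control, by edgeR or by DESeq2, and 0 of 7 had an unadjusted p below 0.05 in any of the 3. Of all genes tested, 0.0591% were called after LPS+IFNγ, 0.0665% after IL-4 and 0.0739% in control, so few genes of any kind passed. The widest gaps were in the fusion genes after IL-4. Ocstamp averaged 46.3 ± 35.8 CPM in KO and 81.8 ± 2.73 CPM in WT IL-4 cells (SD, n = 2), a log2 difference of -0.82 ± 0.45 (95% interval -1.83 to 0.19, adjusted p = 0.980, edgeR). Dcstamp averaged 12.7 ± 11.7 CPM in KO and 21.9 ± 3.93 CPM in WT IL-4 cells, a log2 difference of -0.79 ± 0.56 (95% interval -2.05 to 0.48, adjusted p = 0.980). Both KO means were pulled down by KO IL-4 library 2. Without that library the log2 differences were -0.19 for Ocstamp and -0.06 for Dcstamp. Without KO IL-4 library 1 they were -1.96 (adjusted p = 0.0767) and -2.30 (adjusted p = 0.134).

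KO IL-4 library 2 was also the library with the highest sum of stromal and osteoblast markers, 1968 CPM beside 635 CPM in KO IL-4 library 1 and 186 and 501 CPM in WT IL-4 libraries. Its sum of 10 markers of the IL-4 response was 2657 CPM, beside 3025 CPM in KO IL-4 library 1 and 3384 and 3666 CPM in WT. Most of it was Arg1 (1357 beside 1454 CPM in KO IL-4 library 1) and Mrc1 (687 beside 920 CPM). The markers did not all move alike, as Chil3 was higher in library 2 (406 beside 334.5 CPM). The part of the stromal and IL-4 markers in the lower Ocstamp and Dcstamp of KO IL-4 library 2 was not tested. Fewer cells of a type and less RNA per cell cannot be told apart in such bulk samples. Atp6v0d2 differed between KO and WT IL-4 cells by -0.22 ± 0.47, a smaller gap with overlapping libraries. In control cells the Dcstamp libraries of KO (4.10 and 2.10 CPM) lay below those of WT (5.64 and 4.19 CPM). After LPS+IFNγ those of KO (0.540 and 0.484 CPM) lay above those of WT (0.409 and 0.339 CPM). That order rests on 8 and 5 counts in KO and 6 and 5 counts in WT libraries, too few for a direction. The effect of LPS+IFNγ on Dcstamp differed between KO and WT by 1.12 ± 1.24 (adjusted p = 0.991), and the difference did not exceed the spread of the libraries.

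For the interaction of genotype and treatment, the edgeR fit called 0.00% of the 13525 genes with IL-4 and 0.00% with LPS+IFNγ, with 604 and 476 genes at an unadjusted p below 0.05. DESeq2 called 4 genes for IL-4 and 5 for LPS+IFNγ, and edgeR without the filter on low counts called 23 and 8. Leaving out KO control library 2 gave 12 and 11 genes, leaving out KO LPS+IFNγ library 1 gave 27 for LPS+IFNγ, and leaving out KO LPS+IFNγ library 2 gave 1. Among the 7 genes, Tnfrsf11a alone had an unadjusted p below 0.05, for LPS+IFNγ, and none did for IL-4. DESeq2 called none of the 7 in either interaction. For the IL-4 effect, KO and WT differed by -0.28 ± 1.53 in Ocstamp (95% interval -3.71 to 3.16) and by -0.13 ± 0.83 in Dcstamp (95% interval -1.99 to 1.74), so differences of several-fold in either direction were not detectable. Tnfrsf11a stood higher in KO than in WT in control cells, with no overlap, at a log2 difference of 0.38 ± 0.22 (95% interval -0.11 to 0.87, adjusted p = 0.709). After LPS+IFNγ the KO minus WT difference in Tnfrsf11a was -0.33 ± 0.22 (adjusted p = 0.692), and without KO LPS+IFNγ library 1 it was -0.80 (adjusted p = 0.0177). Without KO LPS+IFNγ library 2 it was 0.03. That library, with 143 CPM, had 1135 CPM of stromal and osteoblast markers beside 436 CPM in KO LPS+IFNγ library 1, and the part of this in its level was not tested.

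Other genes of osteoclast formation were read from 6 lists. Beside the list counts below, IL-4 called 6.86% of all genes tested in KO and 9.04% in WT cells. LPS+IFNγ called 53.3% and 54.3%. Against those shares, a count of called genes does not by itself mark a response of a list. Of 21 tested genes of fusion and adhesion (23 listed), 4 were called after IL-4 in KO cells and 5 in WT cells, all higher, and 17 and 16 did not pass. Itgb3, the beta 3 integrin subunit of the osteoclast's vitronectin receptor, had 36.6 and 30.2 CPM in KO and 48.8 and 43.4 CPM in WT IL-4 libraries, against 7.09 and 6.97 CPM in KO and 8.70 and 10.0 CPM in WT control libraries. Its log2 rise was 2.25 ± 0.28 in KO cells (adjusted p = 0.00281) and 2.30 ± 0.28 in WT cells (adjusted p = 0.00187). Cdh1, which encodes E-cadherin, an adhesion protein used in macrophage fusion, rose by 4.82 ± 0.82 in KO cells and 5.04 ± 0.85 in WT cells. Cdh1 was near its detection limit in control cells, at 0.322 and 0.00 CPM in KO and 0.146 and 0.0985 CPM in WT libraries. With at most 0.06812 CPM after LPS+IFNγ, Cdh1 too passed the low-count filter only through its IL-4 libraries. Tm4sf19, a four-span membrane protein gene, rose by 1.454 ± 0.22 in KO and 1.451 ± 0.22 in WT cells, and Cd44, the hyaluronan receptor gene, by 0.72 ± 0.11 in KO and 1.06 ± 0.12 in WT cells. The list's median log2 fold change after IL-4 was 0.01 in KO and 0.02 in WT cells, close to that of all genes.

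After LPS+IFNγ the same list split, with 7 genes higher and 8 lower in KO cells and likewise 7 and 8 in WT cells. Under total-count scaling, 5 were higher and 12 lower in KO cells, and 6 higher and 11 lower in WT cells. Cd9, a tetraspanin gene, fell, at -2.83 ± 0.24 in KO and -2.965 ± 0.24 in WT cells. Itgam, the integrin alpha M gene, rose by 2.15 ± 0.18 in KO and 2.21 ± 0.18 in WT cells. These directions held under total-count scaling.

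In RANK and M-CSF signalling (21 of 22 listed genes tested), only Plcg2, a phospholipase C gene, was called after IL-4, and it fell, at -0.73 ± 0.14 in KO cells (adjusted p = 0.0169) and -0.52 ± 0.14 in WT cells (adjusted p = 0.0491). After LPS+IFNγ, 5 genes were higher and 3 lower in KO cells, and 7 higher and 1 lower in WT cells, which under total-count scaling became 3 and 9 in KO and 5 and 8 in WT. Syk, the kinase that relays signals of the costimulatory receptors, rose by 1.53 ± 0.12 in KO and 1.51 ± 0.12 in WT cells, and Src, a kinase needed for bone resorption, by 1.83 ± 0.33 and 2.27 ± 0.34. Tnfsf11, the gene of the ligand RANKL, had 42 counts over 8 libraries and was not tested. Tnfrsf11b, which encodes the decoy receptor osteoprotegerin, stayed at or below 2.75 CPM in each library and was called in no comparison with control. Csf1r, the M-CSF receptor gene, had 1370 to 1951 CPM after LPS+IFNγ, 1237 to 1622 CPM after IL-4 and 1536 to 2166 CPM in control, and passed in no comparison with control under TMM scaling.

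Transcription factors of the osteoclast (20 listed, all tested) included more called genes than Nfatc1 alone. After IL-4, 5 were higher and 1 lower in KO cells, and 3 higher and 2 lower in WT cells. Fosl2, an AP-1 factor, rose by 1.33 ± 0.22 in KO and 1.68 ± 0.22 in WT cells. Mitf, the factor known to act on Acp5 and Ctsk, rose by 0.76 ± 0.13 in KO cells (adjusted p = 0.0100) and by 0.72 ± 0.13 in WT cells (adjusted p = 0.0112). Nfatc2, a relative of Nfatc1, fell, at -1.22 ± 0.22 in both genotypes. After LPS+IFNγ, 12 were higher and 3 lower in KO cells and 11 and 2 in WT cells, or 7 and 5 in KO and 8 and 5 in WT under total-count scaling. Jdp2, an AP-1 family factor, rose by 2.87 ± 0.16 in KO and 3.21 ± 0.16 in WT cells, and Nfkb2 by 2.54 ± 0.23 and 2.48 ± 0.23. Mitf, called higher after LPS+IFNγ at 0.47 in KO and 0.72 in WT cells, was at -0.02 and 0.22 under total-count scaling and did not pass there.

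Of 11 repressors of osteoclast formation, all tested, 0 were called after IL-4 in either genotype by edgeR. At an unadjusted p below 0.05 there were 4 in KO and 2 in WT cells. After LPS+IFNγ, 7 were higher and 1 lower in both genotypes, and under total-count scaling 5 and 1 in KO and 6 and 2 in WT. Tnfaip3, the gene of the NF-κB inhibitor A20, rose by 4.01 ± 0.33 in KO and 3.48 ± 0.33 in WT cells. Irf8, another repressor gene, differed from control by 0.24 ± 0.16 in KO and -0.34 ± 0.16 in WT cells and did not pass.

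Atp6v0d2 belongs to the V-ATPase, and 17 of its 21 listed other subunit genes were tested. After IL-4, 4 were higher and 0 lower in KO and in WT cells. Atp6v0a1, a subunit of the membrane part, had 872 and 954 CPM in KO and 827 and 874 CPM in WT IL-4 libraries, against 264 and 382 CPM in KO and 286 and 291 CPM in WT control libraries. It rose after IL-4 by 1.498 ± 0.16 in KO (adjusted p = 0.00153) and 1.56 ± 0.16 in WT cells (adjusted p = 0.000963), and fell after LPS+IFNγ, at -2.10 ± 0.17 in KO and -1.83 ± 0.17 in WT cells. Tcirg1, the a3 subunit gene of the osteoclast's ruffled border, rose after IL-4 by 0.99 ± 0.13 in KO and 0.72 ± 0.13 in WT cells and after LPS+IFNγ by 1.12 ± 0.13 and 0.96 ± 0.13. Atp6v0d1, which encodes the widely expressed d1 form that takes the same place in the pump as d2, had 113 to 146 CPM in all 12 libraries. Its log2 differences were 0.15 ± 0.12 in KO and 0.25 ± 0.12 in WT cells after LPS+IFNγ, and 0.07 ± 0.12 and 0.21 ± 0.12 after IL-4, and none passed. Under total-count scaling the LPS+IFNγ values of Atp6v0d1 were -0.34 (adjusted p = 0.0460) and -0.24 (adjusted p = 0.130). Over the list, LPS+IFNγ called 7 higher and 4 lower in KO cells and 7 and 3 in WT cells, and under total-count scaling 3 and 10 in KO and 2 and 8 in WT.

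Among 14 other genes of acid secretion and resorption, all tested, IL-4 called 1 higher and 1 lower in KO cells and 2 higher in WT cells. Car2, the gene of carbonic anhydrase II, which supplies protons for acid secretion, had 5.14 and 8.48 CPM in KO and 6.86 and 8.64 CPM in WT IL-4 libraries. LPS+IFNγ libraries had 5.20 and 40.8 CPM in KO and 4.56 and 4.81 CPM in WT, and control libraries had 0.276 and 0.488 CPM in KO and 0.486 and 0.197 CPM in WT. Car2 rose after IL-4 by 4.14 ± 0.93 in KO (adjusted p = 0.0320) and 4.47 ± 0.95 in WT cells (adjusted p = 0.0218), and after LPS+IFNγ by 5.88 ± 0.95 and 3.75 ± 0.97. Mmp9, a matrix protease gene of osteoclasts, passed in no comparison with control, with 25.1 to 109 CPM over the 12 libraries. After LPS+IFNγ the list had 5 genes higher and 4 lower in KO and 6 and 2 in WT cells, or 5 and 5 in KO and 5 and 6 in WT under total-count scaling. Snx10, a sorting nexin gene needed for osteoclast resorption, rose by 2.47 ± 0.15 in KO and 2.33 ± 0.15 in WT cells, and Clcn7, the gene of the chloride and proton exchanger of the ruffled border, by 1.59 ± 0.12 in both.

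**Figure D3:**
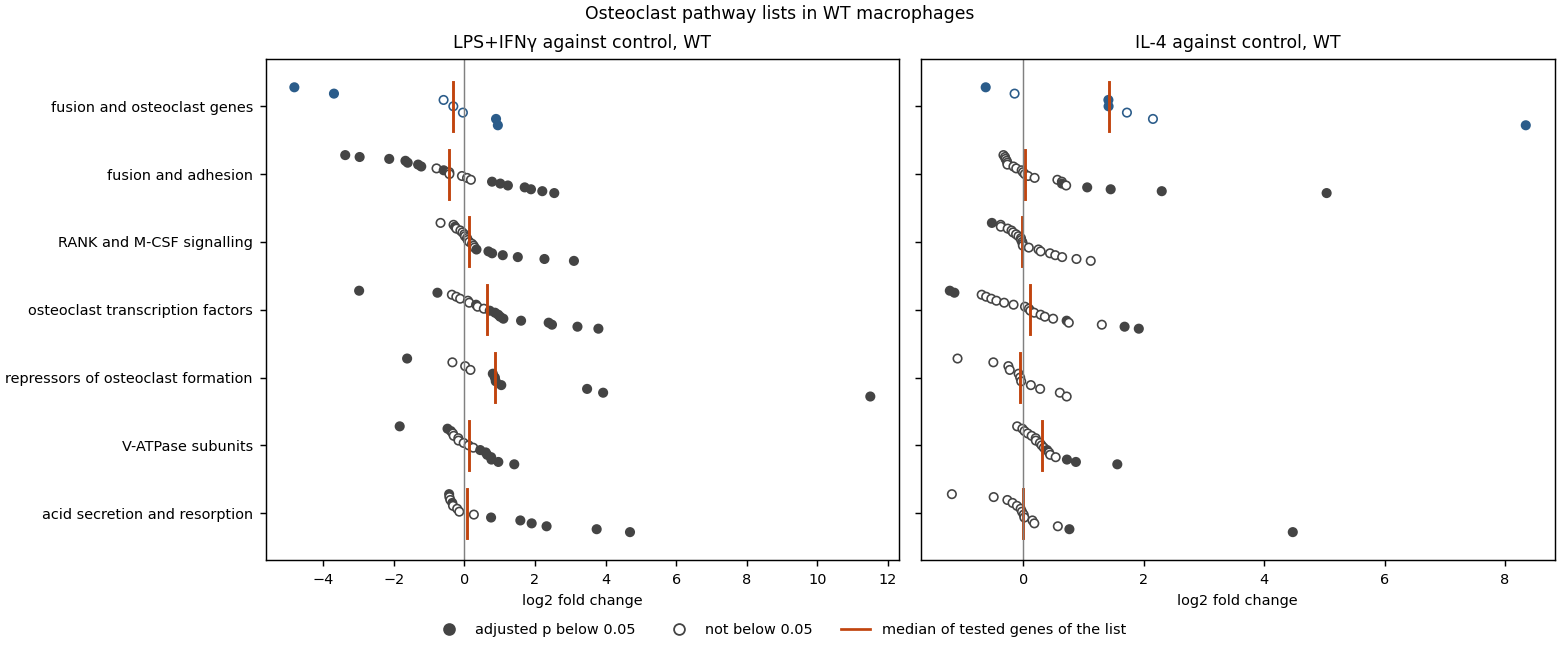
Log2 fold change (horizontal axis) of each tested gene of the 8 genes and of 6 osteoclast lists (rows) in WT cells, after LPS+IFNγ at left and after IL-4 at right, with filled points for an adjusted p below 0.05 and a red bar for each list's median. After IL-4 the median of the 7 fusion and osteoclast genes was 1.42, and those of the 6 other lists lay between -0.05 and 0.31. The genes and the lists were chosen with earlier results of these data known, so the medians do not test a response.

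The genes with the pattern most like each of 5 members were found as the smallest root-mean-square difference of centred log2 CPM over the 12 libraries, which share genotypes and treatments. For Ocstamp these were Il31ra (0.606), Mgl2 (0.745) and Rnase2a (0.830), against 3.54 for the spread of Ocstamp around its own mean. Il31ra averaged 8.87 ± 2.84 CPM in KO and 13.9 ± 2.22 CPM in WT IL-4 cells (SD, n = 2) and had no counts in the LPS+IFNγ and control libraries. Mgl2, a C-type lectin gene used as a marker of IL-4 treated macrophages, averaged 69.3 ± 21.7 CPM in KO and 133 ± 20.5 CPM in WT IL-4 cells. Dcstamp was nearest to Slc9a3r2 (0.327), Olfm1 (0.465) and Dnmt3aos (0.534). Olfm1 averaged 58.7 ± 34.0 CPM in KO and 86.4 ± 5.99 CPM in WT IL-4 cells, a wide spread in KO as in Dcstamp. Atp6v0d2 was nearest to Fam198b (0.320), Sardh (0.405) and Egr2 (0.567). Egr2, an IL-4 responsive transcription factor gene, averaged 1.87 ± 0.92 CPM in KO and 0.815 ± 0.381 CPM in WT LPS+IFNγ cells, 194 ± 13.7 and 194 ± 5.67 CPM in IL-4 cells, and 32.0 ± 14.3 and 33.5 ± 1.11 CPM in control cells. Ctsk was nearest to Klf9 (0.205), Tm4sf19 (0.248) and Arhgap25 (0.283), and Acp5 to Atf3 (0.166), Fam20c (0.170) and Hsph1 (0.178). These values describe likeness in these libraries only.

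**Figure D4:**
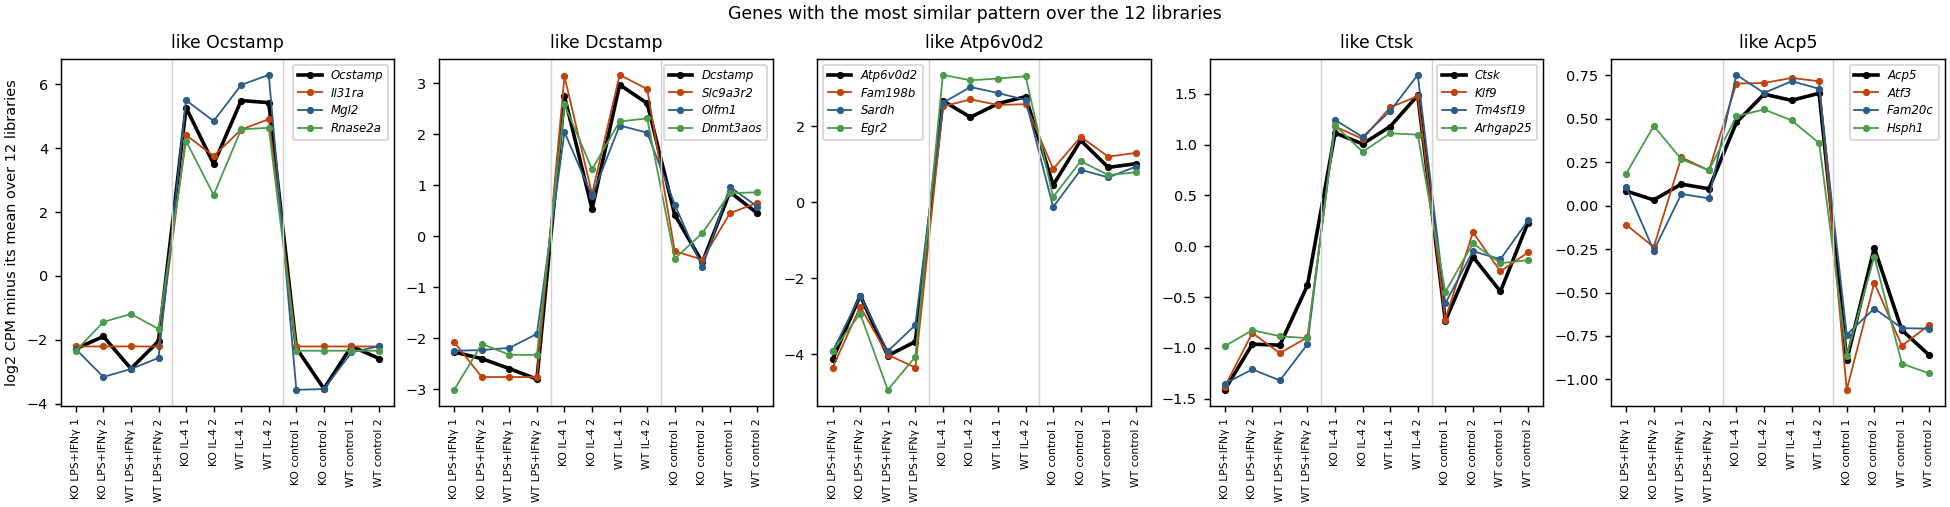
Log2 CPM minus its mean over 12 libraries (vertical axis) for Ocstamp, Dcstamp, Atp6v0d2, Ctsk and Acp5 (black, 1 panel each) and the 3 genes most like each, over the 12 libraries (horizontal axis). In the Ocstamp panel the IL-4 libraries stand above all others, and KO IL-4 library 2 is the lowest of the 4 in Ocstamp.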

How the data were processed

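The deposited table holds estimated counts for 55891 Ensembl gene identifiers in 12 libraries, made with Salmon 1.10.2 and genome build GRCm39 per the submitters' processing notes, which also name R 4.4.1, DESeq2 1.45.3 and FastQC 0.11.9 without their roles. All values deposited by the authors were whole numbers and were used as they stood. The sources used here do not give the transcript annotation or the use of strand. Symbols and positions come from GENCODE M21 (GRCm38, 92.0% of identifiers matched) with no conversion to GRCm39.

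Counts were filtered with filterByExpr (13525 genes left), scaled with TMM and fitted in edgeR 4.0.16 (R 4.3.3) with 1 coefficient per group over all 12 libraries, leaving 6 residual degrees of freedom. Quasi-likelihood F tests, two-sided, were made for 11 contrasts, with Benjamini-Hochberg adjustment over all genes and a threshold of 0.05. SEs derive from the F statistics, and 95% intervals use a t quantile of 2.25. The fit was tested on simulated data. Exact permutation of 2 against 2 libraries cannot give a p below 0.333. Floors cover counting error only.

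The 8 genes and the lists were chosen with earlier results of these data known. Named genes are the 8, per other list and comparison up to 4 called genes of smallest adjusted p, preset key genes, and the 3 nearest by likeness. Alternatives were 2 other scalings, no filter, the compared groups alone, a replicate block, DESeq2 1.42.0 and leaving out each library. The values of 1 listed gene are not reported here.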

Additional observations from a re-analysis of the deposited data

How the results depend on the processing

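The tally of log2 differences refitted under the alternatives left out KO against WT values of Ctsk, Acp5 and Nfatc1. Of the KO minus WT differences of a treatment effect, it held only Ocstamp for IL-4, Tnfrsf11a for LPS+IFNγ and Dcstamp for both. The split does not describe the values left out. Of the values counted, 507 kept their direction and their side of the threshold and 17 changed sign. A further 36 passed only under the alternative, and 31 no longer passed. The causes were not tested. With 4 genes called after IL-4 in WT cells, leaving out 1 library gave 2 to 3, and the count was 6 without the low-count filter, with DESeq2, with only the compared groups and with the replicate block. After IL-4 in KO cells 3 were called, and 6 without the low-count filter, 5 with DESeq2, 0 when the fit held only the compared groups, and 2 to 4 with 1 library left out. With the replicate block the count was 5. Over all genes of each fit, IL-4 called 1222 in WT and 928 in KO cells in the full fit. The counts were 1694 and 1620 without the low-count filter, 1841 and 1640 with DESeq2, and 1603 and 1181 with the replicate block. With only the compared groups they were 3475 in WT and 8 in KO cells. The counts of the listed genes thus moved along with those of all genes. The labels do not say whether library numbers pair libraries across groups. Deviations between libraries of the same group correlated across groups at 0.046 to 0.337, above 0.1 in 14 of 15 pairs of groups. Library 2 also had the higher sum of stromal and osteoblast markers in each of the 6 groups. Whether a batch is shared by library number was not tested, and the block is given as an alternative. LPS+IFNγ in KO cells called 3, and 1 to 3 with 1 library left out. KO against WT after LPS+IFNγ, and the KO minus WT difference of the LPS+IFNγ effect, called 0 in the full fit and 0 to 1 with 1 library left out, where Tnfrsf11a passed without KO LPS+IFNγ library 1.

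Within the tally, signs changed only in differences that did not pass. Under total-count scaling the KO Tnfrsf11a difference after LPS+IFNγ became -0.241, and that of Nfatc1 between LPS+IFNγ and IL-4 became -0.238 in KO and -0.122 in WT cells. With 1 library left out, these ranged as follows. Tnfrsf11a after LPS+IFNγ in KO cells ranged from -0.238 to 0.597, and Ocstamp after LPS+IFNγ in WT cells from -0.814 to 0.453. KO against WT ranged from -2.172 to 0.203 for Ocstamp and from -0.481 to 0.659 for Atp6v0d2 in control. After LPS+IFNγ it ranged from -0.079 to 1.188 for Ocstamp, from -0.293 to 1.388 for Atp6v0d2 and from -0.802 to 0.033 for Tnfrsf11a. The KO minus WT difference of the IL-4 effect ranged from -1.420 to 1.352 for Ocstamp and from -1.636 to 0.601 for Dcstamp. Where a group is left with 1 library, it is assumed to vary like the other groups. Ocstamp outside IL-4, Dcstamp after LPS+IFNγ and Calcr are limited by depth, with counts near the floor.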
